A study of Saccharomyces cerevisiae with 46 samples.

Results

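Auxotrophic marker genes encode enzymes or transporters whose loss makes a yeast cell depend on a supplement in the medium, or lets it survive a toxic analogue. The genes examined here, taken by their position in the R64 assembly, are LEU2, URA3, HIS3, TRP1, ADE2, CAN1, LYS2 and MET17, which are 8 of 6002 nuclear protein-coding genes and overlap 20 bins of 1 kb. Laboratory strains such as W303 carry inactive alleles of several of them, and a working copy, placed on a plasmid or put in place of a deleted gene, is then used to select cells that took up DNA. An added marker gene whose sequence matches the reference raises the read depth over that gene's own position, because reads from the added copy align there. An added copy of unlike sequence need not do so, and a point mutation in the resident allele leaves the depth as it was. BUB3, against which the marker genes are set, encodes a protein of the spindle assembly checkpoint, which holds back chromosome separation until every chromosome is attached.

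The study sequenced genomic DNA of overnight cultures of W303 budding yeast, and its title concerns aneuploidy of particular chromosomes in cells lacking Bub3. The 46 samples were 3 lines in the evolved_Bub3 state (C2, E3 and G4), 20 lines in the evolved state and the same 20 lines in the non-evolved state, with the wildtype LY1 once in each of the 3 states. The labels give no genotype, ploidy or number of generations, do not say what was done to make the evolved_Bub3 samples, and do not say how the lines are related. The library numbers run with the states, so an effect of that order on a value cannot be told apart from one of the state. The p-values of comparisons between states rest on how the differences within a line vary from line to line. Those of relations to the BUB3 level rest on the spread between lines.

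Each deposited value is the log2 copy ratio of a 1 kb bin to the sample's median bin, and 100% of the covered values came out as whole reads. The samples held 1961866 to 3770032 reads, and their median bins 130 to 292. The level of a gene is the mean log2 copy ratio of the bins it overlaps minus the median of its chromosome in that sample. A gain of the whole chromosome leaves it unmoved where the depth of the gene rises in the same proportion. An excess that does not rise with the chromosome reads lower on this scale when the chromosome is gained. A bin that a gene fills only in part dilutes the level, which is therefore not a copy number of the gene. All 8 members lay on covered bins, as did 5885 of the 6002 genes.

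Of the 8 marker genes, LEU2 and URA3 stood away from their chromosomes in some samples, each in a different set of samples. LEU2 was raised in the lines in which BUB3 was under-covered, in both the evolved and the non-evolved state. URA3 was raised in the 4 evolved_Bub3 samples, the wildtype among them, and near its chromosome in the other 42. HIS3, TRP1, ADE2, CAN1, LYS2 and MET17 stayed between -0.27 and 0.28 relative to their chromosome in all 46 samples, as the plot of the level of each gene shows.

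**Figure D1:**
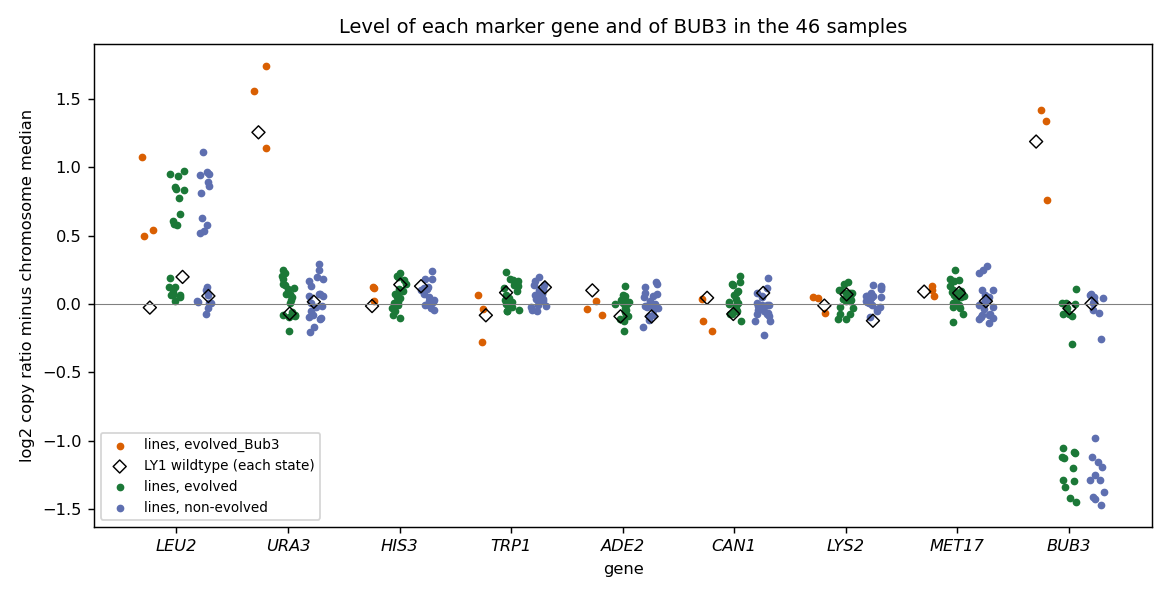
Level of each marker gene and of BUB3 (log2 copy ratio minus the chromosome median) in 46 samples, each point 1 sample, with diamonds for the wildtype LY1. LEU2 and BUB3 fall into separated groups of lines in both states, URA3 is above 1 in the 4 evolved_Bub3 samples alone, and the other 6 genes stay near 0.

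LEU2 encodes beta-isopropylmalate dehydrogenase of leucine synthesis (YCL018W, chromosome III 91324 to 92418) and overlaps 2 bins. Its level was 1.07 in C2, 0.50 in E3 and 0.54 in G4 in the evolved_Bub3 state. Over the 20 evolved lines it had a lowest value of 0.02, a median of 0.58 and a highest value of 0.97, and over the 20 non-evolved lines -0.07, 0.53 and 1.11. These medians lie at the edge of an empty stretch, since the lines fell into separate clusters. The wildtype LY1 read -0.03 in the evolved_Bub3, 0.20 in the evolved and 0.06 in the non-evolved state. The counting error of a LEU2 level was 0.04 to 0.09 (SE, log2, from 244 to 1448 reads), and like every such error here it covers the counting of reads only.

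The lines with LEU2 raised were those with BUB3 under-covered. BUB3 (YOR026W, XV 379781 to 380806, 2 bins) lay between -1.45 and -1.05 in 11 evolved lines and between -0.29 and 0.11 in the other 9, with no line in between. The corresponding ranges were -1.47 to -0.98 and -0.25 to 0.07 in the non-evolved state, and the same 11 lines (A2, A3, B3, C2, C4, D2, D4, E3, E4, F4 and G4) formed the lower cluster in both. Within those 11 lines LEU2 stood between 0.58 and 0.97 in the evolved state and between 0.52 and 1.11 in the non-evolved state. In the other 9 lines (G1, F3, D3, D1, C3, C1, B2, A4 and A1) it stood between 0.02 and 0.19 in the evolved state and between -0.07 and 0.12 in the non-evolved state. The clusters did not overlap in LEU2 level in either state, as the plot of LEU2 against BUB3 shows.

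**Figure D2:**
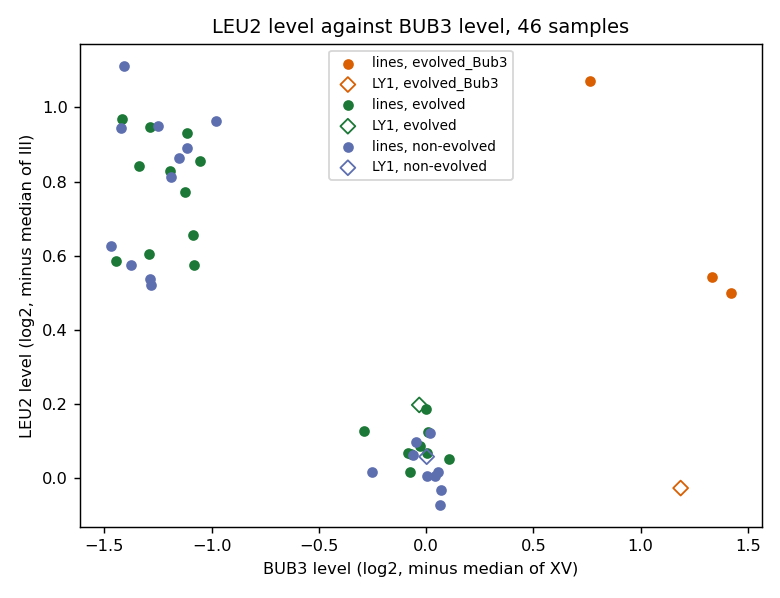
LEU2 level against BUB3 level (both log2, minus the median of their chromosome), each point 1 of 46 samples. Evolved and non-evolved lines with BUB3 at -0.98 or below have LEU2 at 0.52 or above, the remaining lines have LEU2 at 0.19 or below, and the 3 evolved_Bub3 lines combine raised LEU2 with raised BUB3.

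Few genes were separated in this way. Across that gap in BUB3 level, 2 of 5885 genes were higher without overlap in the evolved lines (0.034%), and these were LEU2 and NFS1, the cysteine desulfurase gene next to it, which shares LEU2's right-hand bin. In the non-evolved lines LEU2 was the 1 gene of 5885 that was higher without overlap (0.017%). Among lower genes there were 2 in each state (0.034%), BUB3 itself and its neighbour HST3, a histone deacetylase gene that shares a bin with BUB3. The lines were divided by their BUB3 level, so the separation of BUB3 was fixed in advance. HST3 draws part of its level from the shared bin, so its separation is not independent of that division. The other 7 marker genes overlapped between the clusters in both states, HIS3 and ADE2 included, which lie on chromosome XV with BUB3. The split rests on values measured in the same samples, so it is given as a description without a test.

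Inside the clusters no linear relation between a marker gene and BUB3 passed a test. Over 8 genes, 2 clusters and 2 states there were 32 relations, with Pearson's r between -0.56 and 0.58 and a lowest permutation p of 0.072 (two-sided, 11 or 9 lines, exact for 9). For LEU2 in the evolved lines r was -0.07 in the 11 lines (rho = -0.11, permutation p = 0.827 and 0.753) and -0.14 in the 9 lines (rho = -0.10, exact permutation p = 0.701 and 0.810). Without the 2 lines farthest from the median BUB3 level these values were -0.19 and 0.67. For LEU2 in the non-evolved lines r was 0.25 in the 11 lines (rho = 0.20, permutation p = 0.467 and 0.556) and -0.28 in the 9 lines (rho = -0.65, exact permutation p = 0.474 and 0.0666). The values without the 2 farthest lines were -0.04 and -0.73. On these levels 1 of the 32 rank correlations had a permutation p under 0.05, that of MET17 in the 11 evolved lines (rho = -0.65, p = 0.0333). Rank correlations of LEU2 in alternative settings are given further below. Slopes on the BUB3 level fitted with limma over 5885 genes called none of the 8 genes in any of the 32 fits, with a lowest adjusted p of 0.865 and 0 at an unadjusted p under 0.05.

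The excess at LEU2 reached over 3 bins, as the profile of single bins shows. In the evolved lines with low BUB3 the bin III 91001 to 92000, which holds the left part of LEU2, stood between 0.62 and 0.97 relative to III, and the bin 92001 to 93000 between 0.53 and 1.03. The bin to the left, III 90001 to 91000, holds the end of the Ty element gene YCL019W and the leucine tRNA gene SUP53. It stood between -0.48 and 0.09 in the 11 evolved lines with low BUB3, against -1.23 to -0.75 in the other 9. The same bin lay between -0.43 and -0.01 in the 11 non-evolved lines with low BUB3 and between -1.13 and -0.73 in the other 9. The wildtype resembled the 9 lines there, at -0.91 in the evolved_Bub3, -1.05 in the evolved and -1.07 in the non-evolved state. To the right, the bin III 93001 to 94000 in NFS1 spanned -0.08 to 0.18 in the 11 evolved lines and -0.15 to 0.18 in the 9. The next bin to the left, III 89001 to 90000 inside the Ty element gene, held at most 2 reads in any sample and gives no value. The 2 clusters were thus apart in the 2 LEU2 bins and the bin to their left and overlapped in the bin to their right, at a resolution of 1 kb.

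**Figure D3:**
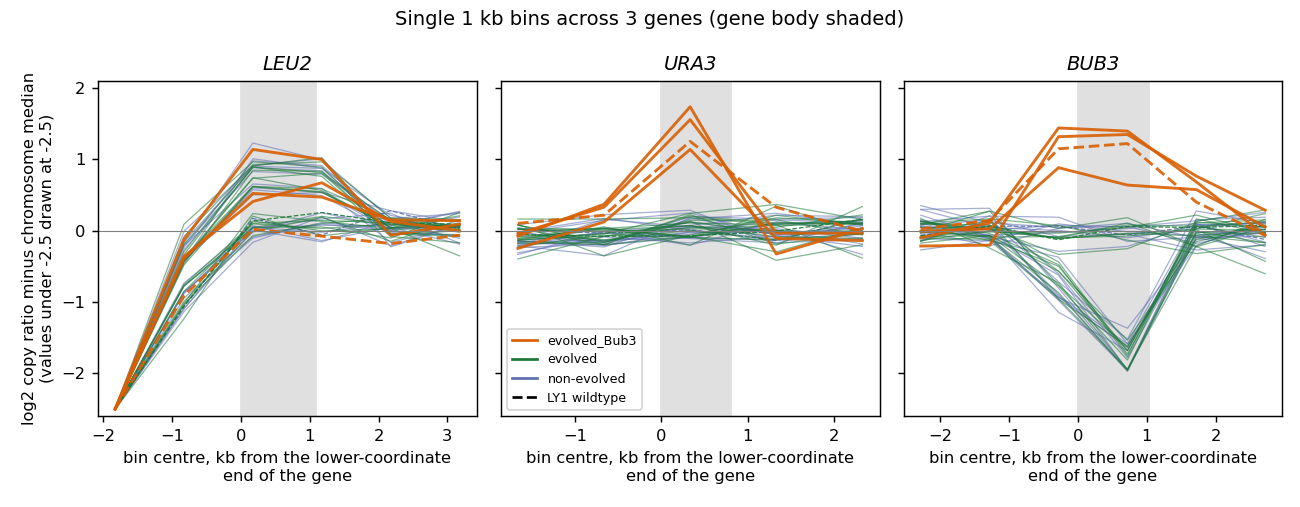
Log2 copy ratio minus the chromosome median of the single 1 kb bins at LEU2, URA3 and BUB3, against the distance of the bin centre from the lower-coordinate end of the gene, 1 line per sample, gene body shaded and the wildtype LY1 dashed. The evolved_Bub3 samples peak in the URA3 bin and over BUB3, while LEU2 and the bin to its left are raised and BUB3 is lowered in the same lines of the evolved and non-evolved states.

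The level of LEU2 relative to III was smaller where III itself was gained. The level of III is subtracted in it, so an excess that does not grow with III reads lower there. The 11 lines with low BUB3 included 5 evolved lines with III at or above 0.3 over the sample baseline (C2, D4, E3, E4 and G4), in which LEU2 read 0.58 to 0.77 above III, and 2 with III below 0.1 (B3 and F4), in which it read 0.95 and 0.97. The 4 evolved lines in between (A2, A3, C4 and D2) read 0.83 to 0.93. In the non-evolved state LEU2 read 0.52 to 0.63 in the 4 lines with III at or above 0.3 (A2, B3, E3 and F4), 0.94 in C4 and 0.89 in D4, and 0.81 to 1.11 in the 5 lines with III below 0.1. In 7 lines III stood at or above 0.3 in 1 state alone, and in 7 of 7 LEU2 was lower relative to III in that state. For example, LEU2 in G4 read 0.59 in the evolved state with III at 0.95, against 1.11 in the non-evolved state with III at 0.01. In B3 it read 0.95 in the evolved state with III at 0.07, against 0.63 in the non-evolved state with III at 0.92. Over the sample baseline the order was the other way. There LEU2 in the evolved lines read 1.14 to 1.62 with III at or above 0.3, 0.94 to 1.13 in between and 1.01 to 1.02 below 0.1. The non-evolved lines read 1.30 to 1.54, 1.08 to 1.09 and 0.90 to 1.13 in the same classes.

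The LEU2 excess was also expressed as an amount of DNA, which depends on the scale used. The amount is the copy ratio summed over the 2 LEU2 bins and the bin on each side, minus what the wildtype LY1 (the mean of its evolved and non-evolved samples) gives at the same III level, in kb per baseline genome copy. It was 1.56 to 2.25 kb in the 11 evolved lines with low BUB3 and 1.49 to 2.56 kb in the same lines in the non-evolved state, with a counting SE of 0.16 to 0.23 kb. In the other 9 lines it was -0.29 to 0.04 kb in the evolved (median -0.18) and -0.46 to 0.06 kb in the non-evolved state (median -0.25). The LY1 standard thus lay above the median of these 9 lines, and amounts measured against it read low. The standard is scaled to the III level of each sample, so this offset in kb is larger where III is gained. By the level of III, the evolved lines gave 1.71 to 2.22 kb at 0.3 or above, 1.56 to 2.25 kb in between and 1.999 to 2.22 kb below 0.1. In the non-evolved state the ranges were 1.49 to 1.94 kb at 0.3 or above, 2.07 to 2.14 kb in between and 1.78 to 2.56 kb below 0.1, of which the first did not overlap with the one in between but did with the last. This use of LY1 was chosen after seeing the data. On the scale of III itself, with a copy ratio of 1 as the standard, the ranges did not overlap: 0.76 to 1.14 kb in the 5 evolved lines with III at or above 0.3 against 1.27 to 1.94 kb in the other 6, and in the non-evolved state 0.64 to 0.85 kb in 4 lines against 1.49 to 2.36 kb in the other 7. In the 7 lines in which III changed its class the amount in the state with III high minus that in the other state was -0.66 to 0.04 kb, and below 0 in 6 of 7. The larger LY1 offset at high III lowers this difference, and its share was not measured. In the same 11 lines BUB3 lacked 0.91 to 1.47 kb in the evolved and 0.76 to 1.29 kb in the non-evolved state, for a gene of 1026 bases.

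**Figure D4:**
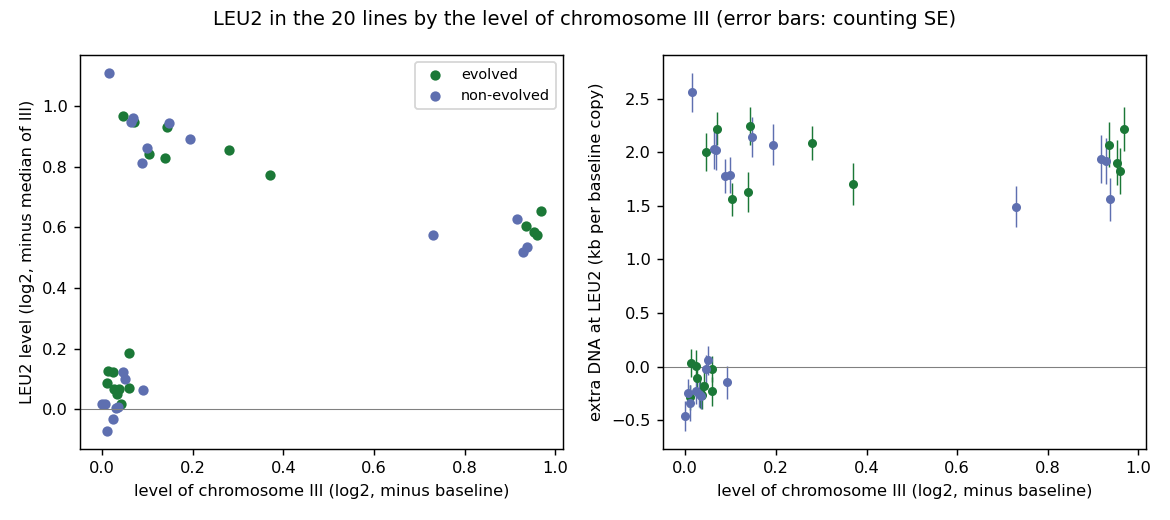
LEU2 level relative to III (left) and extra DNA at LEU2 in kb per baseline copy (right) against the level of chromosome III (log2, minus the sample baseline) in the 20 lines of the evolved and non-evolved states, with counting SE as bars. LEU2 relative to III reads 0.52 to 0.77 in the raised lines with III at or above 0.3 and up to 1.11 in those without, while the extra DNA of all raised lines lies between 1.49 and 2.56 kb.

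The difference in LEU2 between the states did not pass the test. The mean level was 0.47 in the 20 evolved lines and 0.45 in the same lines in the non-evolved state (SD 0.37 and 0.42, n = 20 each), and the evolved minus non-evolved difference was 0.02 (SE 0.05, adjusted p = 0.985 in limma with the line as block), with 13 of 20 lines higher. This test took both clusters together, on a level that moved with the class of III in 7 lines. The evolved and non-evolved medians were 0.83 and 0.86 in the 11 lines with low BUB3, and 0.07 and 0.02 in the other 9. Limma called 0 of 5885 genes in this comparison (0%), with 273 at an unadjusted p under 0.05, so none of the 8 marker genes was called. Among single bins it called 1 of 11810, a lower one (0.00847%), which was none of the 20 bins of the marker genes. In the evolved_Bub3 minus evolved comparison of C2, E3 and G4 the LEU2 difference was 0.10 (SE 0.11, adjusted p = 0.983 in limma), with 1 of 3 lines higher. That line was C2, whose III stood at 0.04 in the evolved_Bub3 sample and 0.96 in the evolved sample, and without C2 the difference was -0.10. The extra DNA at LEU2 was 2.33 kb in the evolved_Bub3 against 1.82 kb in the evolved sample of C2, 1.78 against 2.22 kb in E3 and 2.05 against 1.90 kb in G4. LEU2 therefore stayed raised in the 3 lines in which BUB3 was no longer under-covered.

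URA3 encodes orotidine-5'-phosphate decarboxylase of uracil synthesis (YEL021W, V 116167 to 116970) and lies in a single bin. Its level was 1.14 in C2, 1.56 in E3 and 1.74 in G4 in the evolved_Bub3 state, against 0.07, -0.08 and 0.01 in the evolved samples of these lines. The wildtype read 1.25 in the evolved_Bub3, -0.07 in the evolved and 0.02 in the non-evolved state. The other 42 samples ranged from -0.20 to 0.29 with a median of 0.04, so all 4 evolved_Bub3 samples stood above every other sample. The evolved_Bub3 minus evolved difference over the 3 lines was 1.48 (SE 0.11, adjusted p = 8.49e-05 in limma), with 3 of 3 lines higher. URA3 was the 1 marker gene called of 8, in a comparison that called 6 of 5885 genes (0.102%), 4 of them higher (0.068%). The URA3 bin held 463 to 548 reads in the evolved_Bub3 samples and 143 to 306 in the others.

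The 6 genes called in evolved_Bub3 minus evolved included BUB3 and its neighbour. In the evolved_Bub3 state BUB3 read 1.19 in the wildtype, 0.76 in C2, 1.42 in E3 and 1.34 in G4, against -0.03, -1.08, -1.09 and -1.45 in the evolved state. Its difference over the 3 lines was 2.38 (SE 0.14, adjusted p = 8.69e-06 in limma), and that of HST3 was 0.94 (SE 0.09, adjusted p = 0.00118 in limma). The other 3 called genes were PHO11, YGR038C-A and IMD2, of which PHO11 and YGR038C-A lie on bins of very low depth (mean levels of -6.27 and -3.62 in the evolved_Bub3 lines). Their differences were -1.33 for PHO11, an acid phosphatase gene, 0.57 for YGR038C-A, a Ty element gene, and -0.48 for IMD2 (adjusted p = 0.0275 in limma), an inosine monophosphate dehydrogenase gene of guanine nucleotide synthesis that has close paralogs and is on none of the pathway lists below. Of 11810 bins, 12 were called (0.102%), 7 of them higher (0.0593%) and 5 lower (0.0423%), and the URA3 bin and the 2 BUB3 bins were the 3 in which all 4 evolved_Bub3 samples stood above the other 42.

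At URA3 the rise was narrow. The bin to the left, V 115001 to 116000 in GEA2, a gene for an exchange factor of Arf proteins, read 0.12 to 0.37 in the 3 evolved_Bub3 lines and 0.22 in the wildtype in that state. Its evolved_Bub3 minus evolved difference was 0.30 (SE 0.11, unadjusted p = 0.0183, adjusted p = 0.976 in limma), which did not pass the threshold. The bin to the right, V 117001 to 118000 with TIM9, a mitochondrial import chaperone gene, read -0.32 to -0.03 in the 3 lines and 0.33 in the wildtype. At BUB3 the bin to the right, XV 381001 to 382000 in the co-chaperone gene STI1, read 0.58 to 0.77 in the 3 lines and 0.40 in the wildtype, with a difference of 0.63 (SE 0.10, adjusted p = 0.0563 in limma).

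The amounts of added DNA at the 2 loci were set side by side, with LY1 as the standard. URA3 stood at 1.34 kb in C2, 2.30 kb in E3, 2.62 kb in G4 and 1.92 kb in the wildtype in the evolved_Bub3 state, against 0.11, 0.15, -0.06 and -0.00 kb in the evolved samples. BUB3 stood at 1.86, 3.95, 3.46 and 2.90 kb in the evolved_Bub3 samples of C2, E3, G4 and the wildtype, against -0.93, -1.03, -1.37 and -0.03 kb in their evolved samples. C2 had the smallest amount at both loci. The evolved_Bub3 minus evolved change at BUB3 was 2.3 times that at URA3 in C2 and E3, 1.80 times in G4 and 1.53 times in the wildtype. The counting SE in the evolved_Bub3 samples was 0.14 to 0.20 kb at URA3 and 0.17 to 0.23 kb at BUB3. The ratios carry this error, and their differences between samples were not tested. The same samples set both amounts, and 4 samples give no test of a relation.

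The other 6 marker genes gave levels close to 0 throughout. Among genes on the same number of bins, the SD of LEU2 over the 46 samples was 0.39, above that of 99.4% of 2668 genes, and that of URA3 was 0.42, above that of 99.1% of 974 genes. HIS3 (imidazoleglycerol-phosphate dehydratase, YOR202W, XV 721946 to 722608) was the steadiest of the 8 by this measure, with an SD of 0.0832 that was above that of 8.32% of the 2668 genes on 2 bins. The share was 30.4% for TRP1 and 65.6% for MET17 on 2 bins, and 41.6% for ADE2 and 90.2% for CAN1 among 1447 genes on 3 bins. It was 79.1% for LYS2 among 172 genes on 5 bins, so that CAN1, LYS2 and MET17 varied more than most such genes. HIS3 read 0.02 to 0.13 in the 3 evolved_Bub3 lines, -0.11 to 0.22 around a median of 0.06 in the evolved lines and -0.05 to 0.24 around a median of 0.06 in the non-evolved lines.

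TRP1 encodes phosphoribosylanthranilate isomerase of tryptophan synthesis (YDR007W, IV 461842 to 462516). Its level was 0.06 in C2, -0.04 in E3 and -0.27 in G4 in the evolved_Bub3 state, -0.05 to 0.24 in the evolved lines (median 0.05) and -0.05 to 0.20 in the non-evolved lines (median 0.05). The G4 evolved_Bub3 sample was the lowest of all 46 and had the fewest reads there, 215 over 2 bins. The evolved_Bub3 minus evolved difference was -0.11 (SE 0.10, adjusted p = 0.983 in limma) and turned to 0.06 without G4.

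ADE2 encodes phosphoribosylaminoimidazole carboxylase of purine synthesis, whose loss gives red colonies (YOR128C, XV 564476 to 566191). It read -0.08 to 0.02 in the 3 evolved_Bub3 lines, -0.20 to 0.13 in the evolved lines (median -0.00) and -0.17 to 0.16 in the non-evolved lines (median -0.00). CAN1 encodes the arginine permease that takes up the toxic analogue canavanine (YEL063C, V 31694 to 33466). It read -0.19 to 0.04 in the 3 evolved_Bub3 lines, -0.12 to 0.21 in the evolved lines (median 0.01) and -0.23 to 0.19 in the non-evolved lines (median -0.02). CAN1 lies on chromosome V with URA3 and did not share its rise in the evolved_Bub3 samples.

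LYS2 and MET17 lie on chromosomes that were gained in some samples, and both followed their chromosome there. LYS2 encodes alpha-aminoadipate reductase of lysine synthesis (YBR115C, II 469748 to 473926, 5 bins). Chromosome II stood at 0.77 to 0.93 over the baseline in 16 samples, in which LYS2 relative to II read -0.11 to 0.14, against -0.12 to 0.16 in the other 30. MET17 encodes O-acetylhomoserine sulfhydrylase of methionine synthesis (YLR303W, XII 732542 to 733876). XII stood at 0.99 in 2 samples, in which MET17 relative to XII read -0.08 and -0.07, within the range of -0.14 to 0.28 of the other 44.

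None of these 6 genes was called in either comparison. Evolved minus non-evolved, their differences ran from -0.03 for ADE2 to 0.05 for CAN1 (SE 0.03 each, adjusted p = 0.981 for both in limma). Evolved_Bub3 minus evolved, they ran from -0.11 for TRP1 to 0.07 for HIS3 (SE 0.10 and 0.07, adjusted p = 0.983 for both in limma). In simulated data of this design limma recovered 22% of genes changed by 0.25 in evolved_Bub3 minus evolved and 100% of those changed by 0.5. In evolved minus non-evolved it recovered 100% at both sizes. The simulation changed 50 genes at each size and gave all lines the same mean, while the real comparisons called 6 and 0 genes. Its shares can therefore be too high for these data, and a change of 0.5 or less over the 3 lines could be missed.

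The 8 pathway lists held 77 other genes of leucine, uracil, histidine, tryptophan, adenine, lysine and methionine synthesis and of amino acid uptake, and all 77 were tested. Limma called 0 of 77 in evolved_Bub3 minus evolved (5 at an unadjusted p under 0.05, or 6.49%, median difference -0.01), against 6 of 5885 genes in all (0.102%, with 319 or 5.42% at an unadjusted p under 0.05, median -0.00). It also called 0 of 77 in evolved minus non-evolved (7 or 9.09% at an unadjusted p under 0.05, median -0.00), against 0 of 5885 in all (0%, with 273 or 4.64% at an unadjusted p under 0.05, median -0.00). At these backgrounds a count of 0 among 77 is not a result about the lists. In evolved_Bub3 minus evolved the 10 further uracil genes had a median of 0.05 and the 10 further leucine genes a median of -0.01, with 0 called and 0 at an unadjusted p under 0.05 in each list.

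Likeness over the 46 samples was measured by Pearson's r of gene levels, leaving out genes on the same or adjacent bins, and given for the members spanning over 0.5. The samples share lines, libraries and base composition, so these values are descriptions. The genes most like URA3 were DEG1 (r = 0.69), HST3 (0.69) and BUB3 (0.62), and for HST3 and BUB3 the evolved_Bub3 samples are the high ones in both. DEG1, a tRNA pseudouridine synthase gene on VI, read 0.21 in the wildtype, 0.23 in C2, 0.20 in E3 and 0.20 in G4 in the evolved_Bub3 state, at most 0.10 in the evolved lines and at most 0.09 in the non-evolved lines. Those most like LEU2 were ECM9 (0.53), BRP1 (0.52) and the lipase gene ROG1 (0.51), and the lowest r of all genes with LEU2 was that of BUB3 (-0.64), although the evolved_Bub3 lines are high in both. Those most like TRP1 were YJL052C-A (0.55), the glycolytic gene TDH1 (0.54) and NRT1, a nicotinamide riboside transporter gene (0.53). YJL052C-A and TDH1 share a bin, so their values are not separate. Without the evolved_Bub3 samples TRP1 spans 0.29, which is under the 0.5 of the rule.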

How the data were processed

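Each file holds, per the file headers, log2 copy ratios in 1 kb bins on contigs of R64, as deposited by the authors. Trimmomatic 0.39, BWA 0.7.17, Picard 2.27.1 and GATK are named per the submitters' processing notes, with no GATK version. Duplicate removal, GC correction and a panel of normal samples are not given in the sources used here. Reads were recovered from the ratios (tolerance 0.01 reads), and empty bins were given 0.5 reads. Of 12079 nuclear bins 11810 were kept, and 269 with no reads in most samples were left out. Genes and positions come from the RefSeq table of R64.

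Gene and bin levels were tested with limma 3.58.1 in R 4.3.3, with the line as block and Benjamini-Hochberg adjustment over all genes or bins (threshold 0.05). The code in the sample titles names the line, which gives the pairing. Deviations of the 2 samples of a line correlated at -0.02 to 0.05 (0 of 20 lines above 0.1). No pair of lines of 1 state matched within sampling noise. The tests were tried on simulated data. Extra DNA against LY1 was an alternative chosen after seeing the data. The members, lists and likeness rule (the 3 genes with the highest r) were chosen with earlier results of these data known, and called genes are named.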

Additional observations from a re-analysis of the deposited data

How the results depend on the processing

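Of 207 alternative values, 185 stayed the same. For gene differences and correlations this means the same direction and call. For counts it means a limited ratio to the main count, and for mean amounts of DNA a shift smaller than the main SD. Evolved_Bub3 minus evolved called 6 genes, 0 on levels relative to the sample baseline, 3 relative to the 20 bins on each side, 5 with no replicate block and 5 to 7 when 1 line was left out. On the baseline scale the URA3 difference was 1.496 (adjusted p = 0.937 in limma) and that of BUB3 2.39 (0.937). That fit keeps the whole-chromosome gains in the levels, and URA3 was called in the other 10 of 11 alternatives, with differences over all 11 of 1.35 to 1.69. The paired bin fit called 1 bin in evolved minus non-evolved and 0 with no replicate block. The LEU2 difference in evolved_Bub3 minus evolved was -0.040 in the joint fit over all lines, -0.15 on the baseline scale and -0.099 to 0.23 when 1 line was left out. Extra DNA at LEU2 in the evolved_Bub3 lines averaged 1.20 kb relative to III, 0.25 kb with 2 bins on each side, which takes in the empty Ty bin, and 2.05 kb against LY1. At least 0.5 kb was found in 11 lines of each state, and with 2 bins on each side in 4 evolved and 7 non-evolved lines. The r of LEU2 with BUB3 in the 11 evolved lines was 0.11 with the lower BUB3 bin and 0.17 on the baseline scale, and in the 11 non-evolved lines -0.51 on that scale. With the lower BUB3 bin, rho in the non-evolved state was -0.78 in the 9 lines (exact permutation p = 0.0172) and 0.40 in the 11 (permutation p = 0.227). On the baseline scale it was -0.48 in the 9 lines (exact permutation p = 0.194) and -0.68 in the 11 (permutation p = 0.0246). Small differences also changed sign: URA3 -0.0051 with local flanks, MET17 -0.056 on the baseline scale and BUB3 -0.00111 weighted by bases in evolved minus non-evolved, and in evolved_Bub3 minus evolved ADE2 -0.000457 in the joint fit. With 1 of the 3 lines left out TRP1 gave -0.22 to 0.059, ADE2 -0.073 to 0.076 and MET17 -0.000404 to 0.10. The cause of these changes was not tested. Bins of 1 kb and 130 to 292 reads per bin limit what can be seen: an insert shorter than a bin is diluted.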

Other observations

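In the evolved_Bub3 samples the bins called against the evolved state divided by depth. Apart from the URA3 bin and the 2 BUB3 bins, the 9 other called bins had median levels of -2.94 or lower in the 42 samples of the other states, and lie in subtelomeric genes such as PHO11 and PAU22 or in Ty element genes. In none of these 9 did all 4 evolved_Bub3 samples stand on 1 side of the other 42. The bin VIII 87001 to 88000, in the Ty element genes YHL009W-A and YHL009W-B, was the closest to it. It read -4.0 in C2, -4.61 in E3 and -4.10 in G4 in the evolved_Bub3 state, -2.64 in the wildtype in that state and -3.77 to -2.40 in the other 42 samples. These bins were picked after their values were seen.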
